A study of Homo sapiens with 6 samples.

Results

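The genes described here encode 10 integral proteins of the lysosomal membrane, namely *LAMP1*, *LAMP2*, *CD63*, *SCARB2*, *NPC1*, *MCOLN1*, *CLCN7*, *OSTM1*, *TMEM192* and *CTNS*. They were taken by symbol from the platform annotation, each had 1 probe set, and they are 10 of the 18404 genes that could be tested with 1 probe set per gene. Their levels were compared between large physaliferous cells, the vacuole-filled cells by which chordoma is recognized, and small non-vacuolated cells of the chordoma cell line MUG-Chor1. All pools came from this untreated line grown in IMDM/RPMI with serum. After trypsinization, 20 cells per pool were picked by micromanipulation. The cDNA amplified from each pool with the WT-Ovation One-Direct system was put on its own Affymetrix Human Gene 1.0 ST array. There were 3 pools of large cells, numbered 2, 3 and 4, and 3 pools of small cells, numbered 5, 6 and 7. The study's methods state that 4 pools of each phenotype were picked, and why the series holds fewer is not stated. All values come from 1 cell line, and as no label states that the pools were picked from separate cultures, p-values reflect the spread of these pools alone, which may be technical. The methods speak of biological replicates where they describe the RT-qPCR, which was run on cDNA of the same kind. Values are log2 expression after robust multi-array averaging, and equal amounts of amplified cDNA went onto each array, so a level is a share of the amplified RNA and not an amount per cell. A pool with fewer cells that express a gene and a pool with less of its RNA per cell cannot be told apart.

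The lysosomal membrane holds a small set of heavily glycosylated proteins that line its inner face, together with channels, exporters and carriers. Through these ions, cholesterol, amino acids and other products of digestion leave the lumen, which a proton pump keeps acidic. *LAMP1* and *LAMP2* encode its most abundant glycoproteins, and LAMP2 also serves in the fusion of autophagosomes with lysosomes and, as the isoform LAMP2A, in chaperone-mediated autophagy. Many lysosomal genes carry copies of a palindrome built round CACGTG near their start, the CLEAR element, which the MiT/TFE factors TFEB, TFE3 and MITF bind.

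The 250 bases before the annotated start were read from a table of RefSeq promoter windows (GRCh38.p14), in which 9 of the 10 genes (all but *LAMP2*) were matched to 17 windows, since *CD63* and *CTNS* have several starts. CACGTG, which reads the same on both strands, stood in 4 of these 17 windows, that is in 1 window each of *LAMP1*, *MCOLN1*, *CLCN7* and *CD63*. Among the 35116 windows read for all genes, 6.34% held it and 0.535% held it 2 or more times. Among the 20100 windows of genes tested here these shares were higher, at 7.39% and 0.677%. The windows of *LAMP1* (chr13:113296989-113297238, plus strand), *MCOLN1* (chr19:7522374-7522623, plus strand) and *CLCN7* (chr16:1475029-1475278, minus strand) are shown because each held it more than once. They are written 5′ to 3′ up to the base before the start, with each CACGTG in capitals.
LAMP1: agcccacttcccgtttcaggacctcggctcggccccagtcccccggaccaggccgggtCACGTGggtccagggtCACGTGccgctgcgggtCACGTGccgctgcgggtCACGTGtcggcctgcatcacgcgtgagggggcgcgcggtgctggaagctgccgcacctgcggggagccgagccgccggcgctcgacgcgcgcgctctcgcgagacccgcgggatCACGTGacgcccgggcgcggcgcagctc
MCOLN1: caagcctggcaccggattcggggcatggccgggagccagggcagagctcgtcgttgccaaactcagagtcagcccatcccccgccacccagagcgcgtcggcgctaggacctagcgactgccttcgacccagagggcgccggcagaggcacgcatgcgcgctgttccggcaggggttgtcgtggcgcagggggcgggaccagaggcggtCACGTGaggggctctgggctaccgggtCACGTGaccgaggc
CLCN7: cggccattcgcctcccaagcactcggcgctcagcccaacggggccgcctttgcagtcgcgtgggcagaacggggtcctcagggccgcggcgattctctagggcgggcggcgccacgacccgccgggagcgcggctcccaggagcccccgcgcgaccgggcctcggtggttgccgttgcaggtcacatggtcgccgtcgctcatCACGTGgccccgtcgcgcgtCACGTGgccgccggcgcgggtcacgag
*LAMP1* held it 5 times between 192 and 28 bases before the start, and no other of the 35116 windows held it as often. *MCOLN1* held it at 41 and 14 bases and *CLCN7* at 47 and 27 bases before the start. Both copies in *MCOLN1* and 1 copy in *LAMP1* lay within the longer palindrome TCACGTGA. It was found in 0.854% of all windows and in 1.16% of those of genes tested. One copy in *MCOLN1* was the full CLEAR palindrome, found in 0.308% of all windows and in 0.443% of those of genes tested. The window of *CD63* held 1 copy at 180 bases before the start. The windows of *SCARB2*, *NPC1*, *OSTM1*, *TMEM192* and *CTNS* did not hold these letters.

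None of the 10 genes passed the test between the phenotypes, as none of the 18404 genes did (0% called at an adjusted p under 0.05 and a log2 fold change above 1 in size, moderated test of limma, smallest adjusted p 0.143). No filter was applied here. The study first removed genes that were not expressed or did not vary. At the same thresholds it then called *ALG11*, *UCHL3*, *TMEM144* and *PPP2CB*, none of them among the 10 genes. At an unadjusted p under 0.05, 1 of the 10 genes was higher in large cells, *OSTM1*, against 4.33% of all genes, and 1 was lower, *TMEM192*, against 10.5% of all genes. The largest differences in size were those of *TMEM192*, *LAMP2*, *NPC1* and *OSTM1*, between 0.44 and 0.77 on the log2 scale. Those of *LAMP1*, *CD63*, *SCARB2* and *CTNS* were at most 0.05. For 1 gene, *OSTM1*, all large pools lay above all small pools (5.48% of all genes) and for 3, *MCOLN1*, *CLCN7* and *TMEM192*, all large pools lay below them (21.6% of all genes). For a single gene the exact two-sided permutation test of 3 against 3 pools cannot give a p below 0.1. The number of arrays therefore limits the precision, which the confidence intervals below express.

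**Figure D1:**
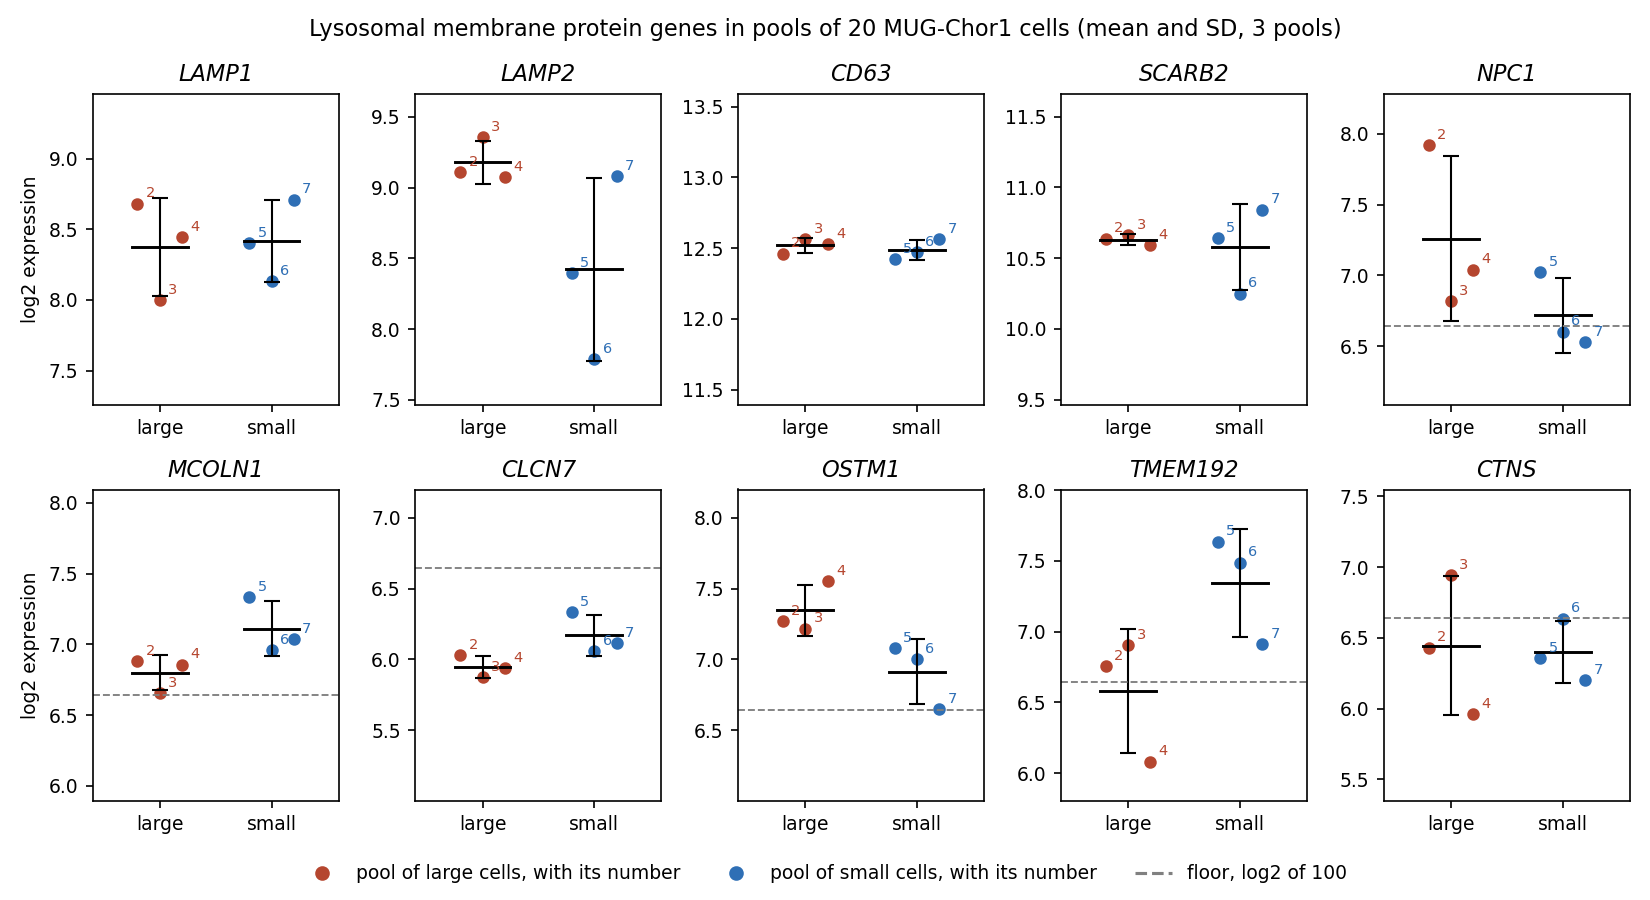
Log2 expression of the 10 genes in each pool of 20 cells, large pools in red and small pools in blue with their numbers, horizontal bars for the means, error bars for the SD (n = 3) and a dashed line for the floor of 6.64, each panel over its own part of the scale. *CD63* lay between 12.42 and 12.57 in all 6 pools, whereas the small pools of *LAMP2* spread from 7.79 to 9.08.

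Among the structural glycoproteins, *LAMP1* (chr13:113297239-113323672) was at the same mean level in both phenotypes within the spread of the pools. Its log2 expression was 8.68, 8.0 and 8.44 in large pools 2, 3 and 4 and 8.40, 8.13 and 8.71 in small pools 5, 6 and 7, with the groups overlapping over almost their whole range. The difference, large minus small, was -0.04 (standard error 0.23, 95% confidence interval -0.59 to 0.51, adjusted p from limma 0.931). *LAMP2* (chrX:120426148-120469349), by contrast, was at 9.11, 9.36 and 9.08 in the large pools and at 8.39, 7.79 and 9.08 in the small pools. The large pools lay close together (9.18 ± 0.15, SD, n = 3), the small pools did not (8.42 ± 0.65, SD, n = 3), and small pool 7 reached the level of large pool 4. The difference of 0.76 (standard error 0.32) corresponds to a ratio of 1.69, with a 95% confidence interval from 0.987 to 2.90 and an adjusted p from limma of 0.337. It was 0.44 without small pool 6 and 1.09 without small pool 7. The interval of the difference reached from -0.02 to 1.54, so that it included equal levels.

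*CD63*, a tetraspanin of late endosomes, lysosomes and exosomes, had the narrowest values of the 10 genes over all 6 pools. It was at 12.46, 12.57 and 12.53 in the large pools and at 12.42, 12.47 and 12.57 in the small pools, a difference of 0.03 (standard error 0.09, 95% confidence interval -0.19 to 0.26, adjusted p from limma 0.87). The highest value on any array lay between 13.31 and 13.58, so that *CD63* stood near the upper end of the scale, where array signals can be compressed. *SCARB2* (chr4:76158737-76234532) encodes LIMP-2, the receptor that carries glucocerebrosidase to the lysosome. Its values were 10.64, 10.66 and 10.59 in the large pools and 10.64, 10.25 and 10.84 in the small pools. The small pools lay on both sides of the large ones, and the difference was 0.05 (standard error 0.16, 95% confidence interval -0.35 to 0.45, adjusted p from limma 0.876).

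The exporters of lysosomal cargo had values near the expression floor, set here at 100 on the linear scale or 6.64 on the log2 scale. *NPC1* (chr18:23506184-23586506), which moves cholesterol out of the lysosome, was at 7.92, 6.82 and 7.04 in the large pools and at 7.02, 6.60 and 6.53 in the small pools. All 3 large pools were above the floor and 1 small pool was, and large pool 2 stood above the other 5 pools. The difference of 0.54 (standard error 0.31, 95% confidence interval -0.21 to 1.30, adjusted p from limma 0.401) came down to 0.21 without large pool 2. *CTNS* (chr17:3636459-3663103), the cystine exporter cystinosin, was at 6.43, 6.94 and 5.96 in the large pools and at 6.36, 6.64 and 6.20 in the small pools. Only large pool 3 exceeded the floor, and the difference was 0.05 (standard error 0.26, 95% confidence interval -0.59 to 0.69, adjusted p from limma 0.933).

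The ion channel and the chloride exchanger had a lower mean in large cells, as had 66.4% of all genes, with intervals that included equal levels. Their groups did not overlap, and 21.6% of all genes likewise had all large pools below all small pools. *MCOLN1* (chr19:7522624-7534009), the calcium release channel TRPML1, was at 6.88, 6.66 and 6.86 in the large pools and at 7.33, 6.96 and 7.04 in the small pools. Every large pool was below every small pool, with a gap of 0.08 between the nearest pools and a difference of -0.31 (standard error 0.14, 95% confidence interval -0.64 to 0.02, adjusted p from limma 0.34). It was -0.20 without small pool 5. *CLCN7* (chr16:1444935-1475028), which encodes the chloride/proton exchanger ClC-7, was at 6.03, 5.87 and 5.94 in the large pools and at 6.34, 6.06 and 6.11 in the small pools. These values were below the floor in all 6 pools, and the difference of -0.22 (standard error 0.11, 95% confidence interval -0.50 to 0.05, adjusted p from limma 0.367) left a gap of 0.03 between the groups. It was -0.14 without small pool 5.

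*OSTM1* (chr6:108041409-108074741) encodes the subunit that stabilizes ClC-7, and its values ran the other way. They were 7.27, 7.22 and 7.55 in the large pools and 7.08, 7.0 and 6.65 in the small pools. Every large pool was above every small pool by at least 0.14, and the difference of 0.44 (standard error 0.16, 95% confidence interval 0.05 to 0.82, adjusted p from limma 0.328) is a ratio of 1.35. Taken within each array, the log2 ratio of *OSTM1* over *CLCN7*, relative to its mean over the 6 pools, was 0.17, 0.27 and 0.54 in the large pools and -0.33, -0.13 and -0.54 in the small pools. It was thus higher in each large pool, by 0.66 on average, which follows from the values of each gene given above and adds nothing to them. This pair was chosen after its values had been seen, so that the ratio is given without a test, and *CLCN7* was not above the floor in any pool.

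*TMEM192* (chr4:165070608-165112860), a small membrane protein used as a tag to pull down whole lysosomes, had the largest difference in size of the 10 genes. Its values were 6.76, 6.90 and 6.08 in the large pools and 7.64, 7.49 and 6.91 in the small pools. The groups did not overlap, but small pool 7 exceeded large pool 3 by only 0.01. The difference of -0.77 (standard error 0.28, 95% confidence interval -1.45 to -0.08, adjusted p from limma 0.329) was measured near the floor, since the mean of the large pools was 6.58 and large pool 4 was below the floor. It was -0.52 without large pool 4 and -0.98 without small pool 7.

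**Figure D2:**
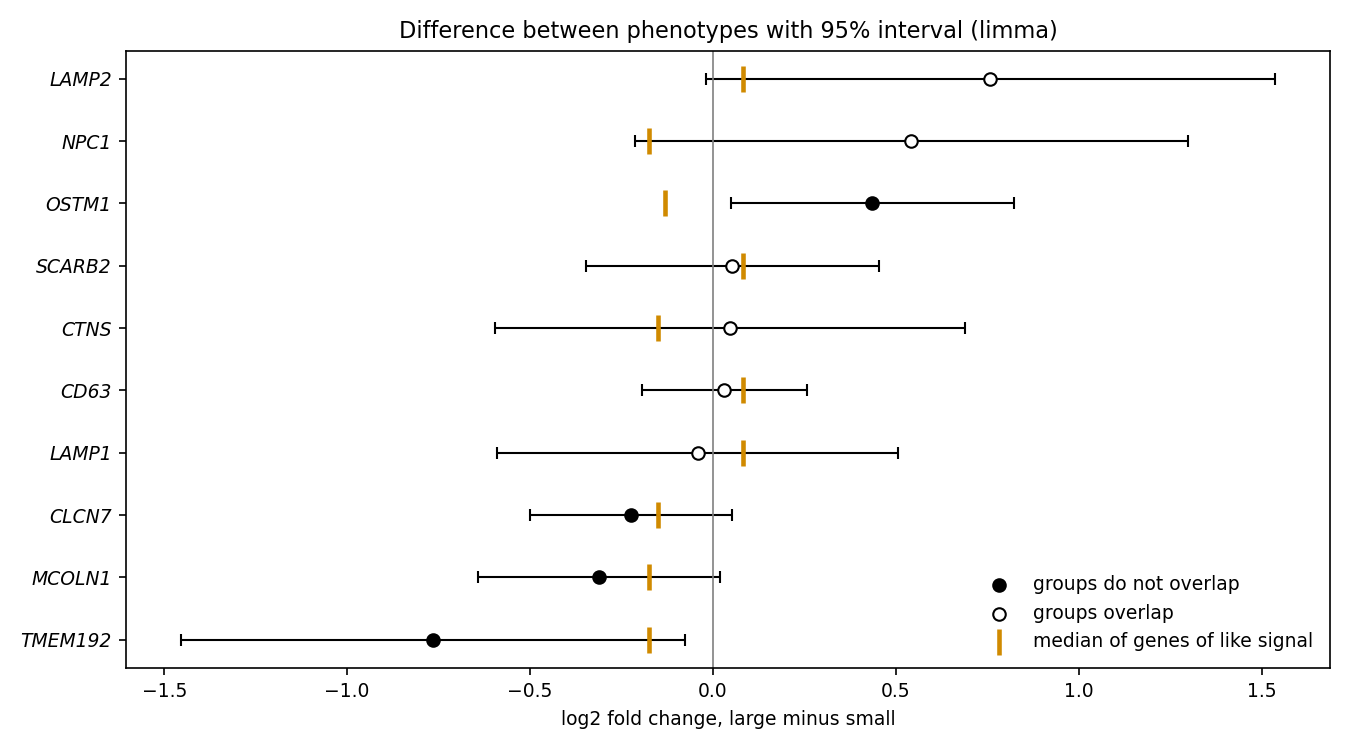
Log2 fold change, large minus small, of each of the 10 genes with its 95% confidence interval from limma and n = 3 pools per phenotype. The intervals of *OSTM1* (0.05 to 0.82) and *TMEM192* (-1.45 to -0.08) exclude 0 before adjustment for the number of genes tested, and no gene had an adjusted p below 0.328.

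The values have to be read against a shift of the arrays as a whole. The median log2 expression over all probe sets was 6.64 to 6.68 in the large and 6.73 to 6.76 in the small pools, and 66.4% of all genes had a lower mean in large cells, with a median difference of -0.11. Of the 10 genes 6 had a higher mean in large cells, against 33.6% of all genes, and 4 a lower mean, and their median difference was 0.04. When the arrays were quantile normalized again, this split was 6 and 4. It was 7 and 3 when every array was centred on its median, and 4 and 6 when every array's trend with signal level was removed. In that order 62.3%, 54.4% and 50.2% of all genes had a lower mean. The shift varied with signal level. When all genes were split by mean level into 5 equal classes, the median difference was 0.08 in the brightest class, which holds *LAMP1*, *LAMP2*, *CD63* and *SCARB2*, and -0.17 in the middle class, which holds *NPC1*, *MCOLN1* and *TMEM192*. Relative to the median of its own class, *NPC1* differed by 0.72, *LAMP2* by 0.68, *OSTM1* by 0.57 and *TMEM192* by -0.59. *MCOLN1* and *CLCN7* differed from their classes by -0.14 and -0.07 only.

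**Figure D3:**
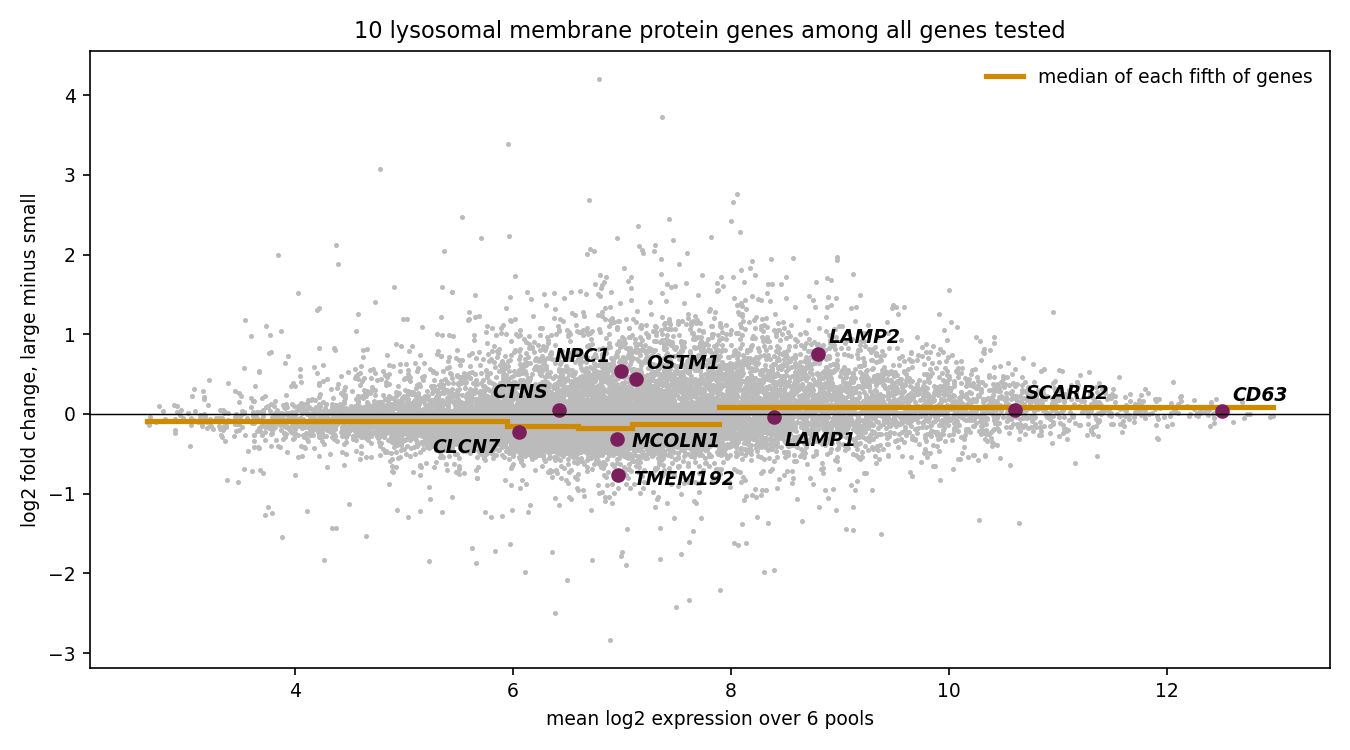
Log2 fold change, large minus small, against mean log2 expression over the 6 pools for all 18404 genes (gray) and the 10 lysosomal membrane protein genes (colored and named). The steps mark the median of each of 5 equal classes of genes by level, which is 0.08 in the brightest class and -0.09 to -0.17 in the others.

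Under 3 further scalings of the arrays the differences of *MCOLN1*, *CLCN7* and *TMEM192* came closer to 0 and those of *OSTM1* and *NPC1* moved away from it. In the order quantile normalization, centring and removal of the trend with signal level, the difference of *MCOLN1* was -0.24, -0.23 and -0.15. That of *CLCN7* was -0.17, -0.14 and -0.09. The differences of *TMEM192* were -0.71, -0.68 and -0.60, those of *OSTM1* 0.49, 0.52 and 0.59, those of *NPC1* 0.61, 0.63 and 0.70 and those of *LAMP2* 0.71, 0.84 and 0.69. The number of the 10 genes with all large pools below all small pools was 3 as deposited, against 21.6% of all genes. It was 1, 0 and 0 under these scalings, for which the share of all genes was not counted. This fall is therefore not a result about the 10 genes. Among all genes, 797 were higher and 1934 lower in large cells at an unadjusted p under 0.05 as deposited. These counts were 834 and 1086 after quantile normalization, 1207 and 718 after centring, and 1130 and 462 with the trend removed.

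**Figure D4:**
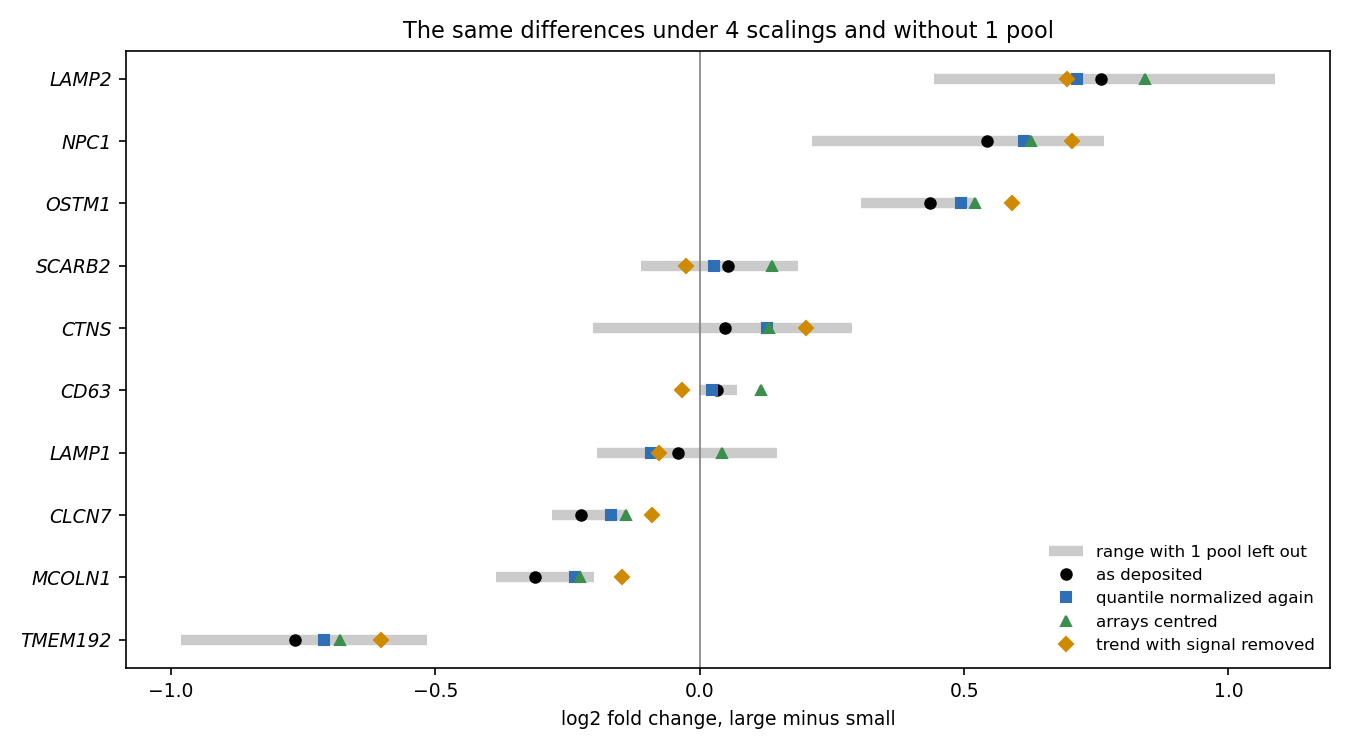
Log2 fold change, large minus small, of the 10 genes as deposited and under 3 further scalings of the arrays (symbols), with a gray bar from the lowest to the highest value with 1 pool left out. Symbols and bars of *LAMP2*, *NPC1* and *OSTM1* lie above 0 and those of *TMEM192*, *MCOLN1* and *CLCN7* below 0, while the values of *LAMP1*, *CD63*, *SCARB2* and *CTNS* lay on both sides of 0.

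Of the genes whose pools ran most like those of *LAMP2*, the nearest was *PRCP*, a lysosomal carboxypeptidase. Likeness was the root mean square difference of log2 values centred on their mean over the 6 pools, ranked over 7989 other genes above the floor in every pool. It was 0.0788 for *PRCP*, 0.0982 for *CHMP2B*, a subunit of the ESCRT-III membrane scission complex, and 0.111 for *TALDO1*, the transaldolase of the pentose phosphate pathway. *CCDC91*, a binding partner of Golgi-associated clathrin adaptors, followed with 0.142 and *PTP4A1*, a protein tyrosine phosphatase, with 0.145. Their differences, large minus small, were 0.79, 0.73, 0.60, 1.02 and 0.76. As these genes were picked for likeness over the same pools, differences like that of *LAMP2* follow from the choice. Of the other lysosomal membrane protein genes, *SCARB2* ranked 579 (0.415), *CD63* 1571 (0.507), *LAMP1* 2007 (0.531), *OSTM1* 2204 (0.541) and *MCOLN1* 6026 (0.671). These root mean square differences were far larger than those of the 5 nearest genes, so a rank alone does not show likeness. The remaining 4 were not above the floor in every pool. Likeness over 6 pools from 2 phenotypes is a description.

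Beyond the 10 genes, 5 lists of 81 genes hold a selection of other lysosomal membrane genes and of those that sort and regulate such proteins. Of these 77 were measured, 49 of them above the floor in all 6 pools, and 0 passed the test. At an unadjusted p under 0.05, 6 of the 77 were higher and 6 lower in large cells, against 4.33% and 10.5% of all genes, and 36 had a higher and 41 a lower mean. After quantile normalization 41 had a higher and 36 a lower mean, after centring 49 and 28 and with the trend removed 45 and 32, so that the balance of the signs turned with the scaling. All large pools were above all small pools for 6 (5.48% of all genes) and below them for 11 (21.6% of all genes).

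The list of other lysosomal membrane proteins held 17 genes, of which 10 had a higher and 7 a lower mean in large cells (median 0.03), and 7 a higher and 10 a lower mean with the trend removed (median -0.01). *MFSD1*, a carrier of dipeptides, was at 9.79, 10.13 and 10.64 in the large and 8.04, 9.78 and 8.70 in the small pools, a difference of 1.35 (standard error 0.46, adjusted p from limma 0.323). The lowest large pool exceeded small pool 6 by less than 0.01. *GLMP*, the glycoprotein that MFSD1 needs for its stability, was at 7.18, 6.91 and 6.99 in the large and 7.95, 7.45 and 7.22 in the small pools, a difference of -0.51 (standard error 0.20, adjusted p from limma 0.335). It was -0.31 without small pool 5. *CD68*, the macrosialin of the LAMP family, had a difference of 0.60 (standard error 0.22, adjusted p from limma 0.326). *CLN3*, the Batten disease protein, had -0.30 (standard error 0.11, adjusted p from limma 0.329), and *SIDT1*, below the floor in all pools, had -0.42.

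Of 26 other channels and transporters, 11 had a higher and 15 a lower mean in large cells (median -0.12, against -0.11 for all genes). With the trend removed 15 had a higher and 11 a lower mean, and the median was 0.04. The values of *CLCN3*, an endosomal chloride/proton exchanger of the same family as ClC-7, were 9.05, 8.75 and 8.35 in the large pools and 6.99, 7.80 and 7.65 in the small pools. The groups were well apart, and the difference was 1.23 (standard error 0.27, adjusted p from limma 0.323). *MCOLN3*, a paralog of *MCOLN1*, was at 8.57, 8.67 and 8.57 in the large and 8.01, 8.29 and 8.16 in the small pools. All its large pools were above its small pools, with a difference of 0.45 (standard error 0.11, adjusted p from limma 0.323), the opposite sign to that of *MCOLN1*. *SLC17A5*, the sialic acid exporter sialin, had a difference of 0.47 with overlapping groups. *MFSD12*, a cysteine carrier, and *ABCA2*, a lipid transporter, had -0.36 and -0.26 (adjusted p from limma 0.328 and 0.336), and -0.20 and -0.10 with the trend removed.

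Among 5 measured partners, *HSPA8*, the chaperone that brings substrates to LAMP2A, had a difference of 0.14 and *CTSA*, the protease known to cleave LAMP2A, -0.12 (adjusted p from limma 0.445 and 0.471). Over the alternatives the first ranged from 0.07 to 0.22 and the second from -0.18 to -0.04. Of 17 measured subunits of the clathrin adaptors AP-1, AP-2 and AP-3, which sort these proteins, 7 had a higher and 10 a lower mean (median -0.03), and 10 a higher and 7 a lower mean with the trend removed (median 0.06). *AP3B1*, the beta subunit of AP-3, had 7.73, 7.41 and 7.65 in the large and 6.99, 7.50 and 6.87 in the small pools. Its difference was 0.48 (adjusted p from limma 0.336), and that of *AP2A2* was -0.27 (adjusted p from limma 0.334), or -0.11 with the trend removed. In the list of 12 MiT/TFE and Ragulator-Rag genes, which regulate lysosomal genes and anchor mTORC1 at the lysosome, none had an unadjusted p under 0.05. *LAMTOR3* had a difference of 1.00 with a standard error of 0.63 and *LAMTOR5* one of 0.25 (adjusted p from limma 0.429 and 0.489). The difference of *LAMTOR3* was 0.44 without large pool 2 and 1.54 without small pool 7. That of *LAMTOR5* was 0.39 without large pool 2, 0.405 without small pool 6 and 0.16 without small pool 7. The factors that bind CACGTG had differences of -0.02 for *TFEB*, -0.04 for *TFE3*, -0.10 for *MITF* and -0.04 for *TFEC* as deposited, and signs among them turned under some scalings. *TFEC* was below the floor in all 6 pools and *TFE3* exceeded it in 2, which limits how well their differences can be measured.

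**Figure D5:**
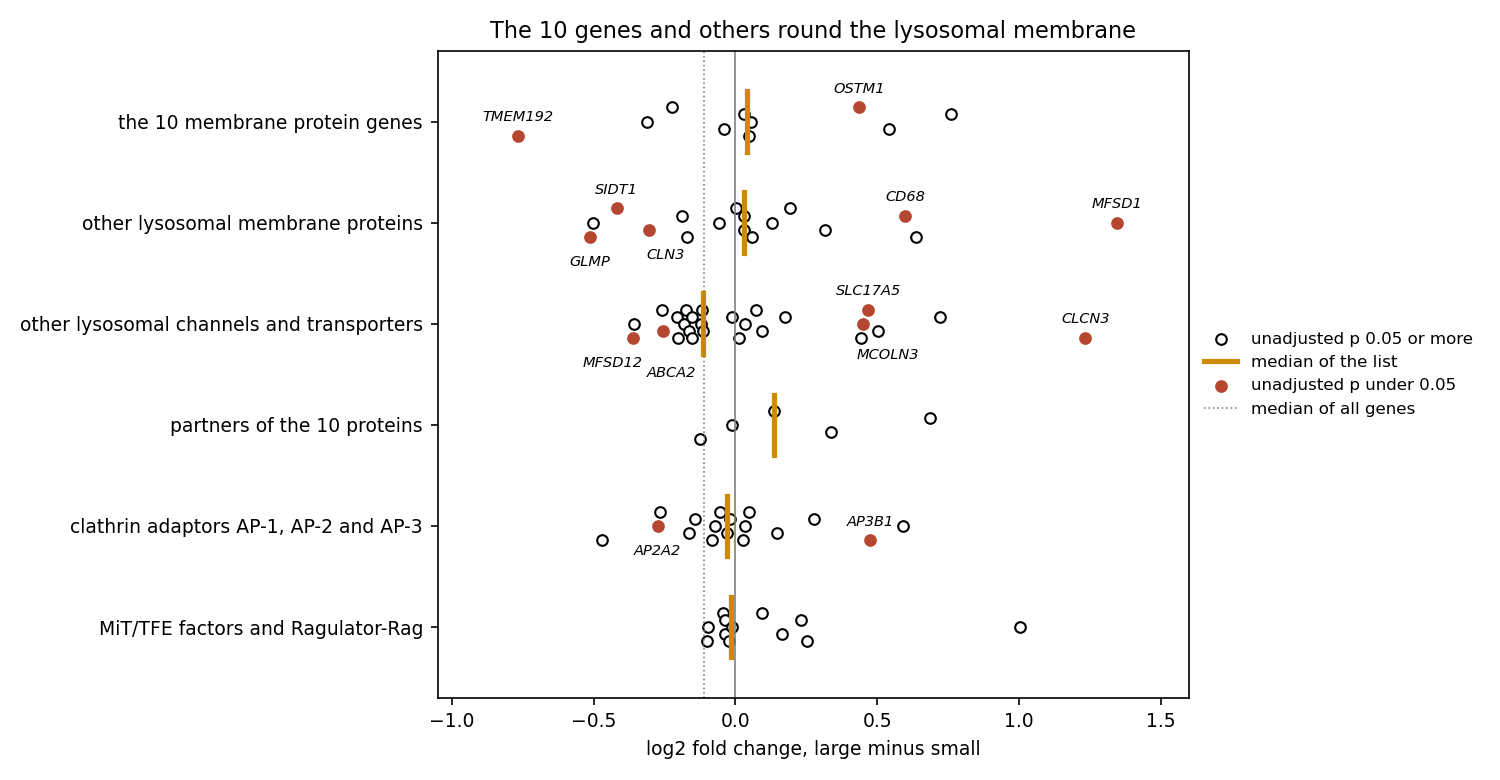
Log2 fold change, large minus small, of the genes of the 5 lists round the lysosomal membrane, with 1 point per gene, a bar for the median of each list, a dotted line for the median of all genes (-0.11) and the 10 genes in the top row. Filled, named points had an unadjusted p under 0.05, such as *MFSD1* at 1.35 and *CLCN3* at 1.23, and the points of every list lie on both sides of 0.

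The pools carried the markers of chordoma, with 9 of 9 identity genes above the floor in every pool and summed levels of 13.75 to 13.80 in the large and 13.70 to 13.77 in the small pools. The 9 fibroblast markers all had a lower mean in large cells (summed level 10.43 to 10.86 against 10.97 to 11.20), although 3 were below the floor in every pool and the split was 3 higher and 6 lower after centring and 5 higher and 4 lower with the trend removed. Leukocyte markers summed to 9.05 to 9.24 and 9.20 to 9.42, and endothelial markers to 8.65 to 8.91 and 8.78 to 8.87. Below the floor in every pool were 3 of 7 measured leukocyte markers and 5 of 6 endothelial markers, *VWF* and *PECAM1* among them. *CSF1R* exceeded the floor in small pool 5 only. In these lists the differences with the smallest p were 0.19 for *KRT8* and -0.16 for *SOX9*, -0.47 for *THY1* and -0.21 for *COL1A1*, -0.33 for *CSF1R*, and -0.22 for *VWF* and -0.21 for *PECAM1* (adjusted p from limma 0.323 or more). Without large pool 3 that of *THY1* was -0.26, and that of *SOX9* ranged from -0.31 to -0.09 with single pools left out (lowest without large pool 4, highest without large pool 3). Of 15 mitosis genes 11 had a lower mean in large cells, but large pool 4 stood apart. Without it 14 of 15 had a lower mean, and the median was -1.20 in place of -0.40. At an unadjusted p under 0.05 from limma, 8 were lower without it against 0 with it. Of all 18404 genes, 1530 were lower at this threshold without it. This pool was singled out by the values of these same genes, so the counts without it are a description and not a test. In large pool 4 *NUSAP1*, a spindle protein, was at 9.16 against 5.63 and 5.59 in large pools 2 and 3. Its difference was -2.21 with and -3.40 without large pool 4, and that of *CENPF*, a kinetochore protein, was -1.46. Whether these markers have a part in the differences of the 10 genes was not tested. The differences without large pool 4 were 0.81 for *LAMP2*, 0.65 for *NPC1*, 0.33 for *OSTM1*, -0.52 for *TMEM192* and -0.34 for *MCOLN1*.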

How the data were processed

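The authors deposited log2 expression values, with 1 column for each array, after background correction, quantile normalization and median polish by robust multi-array averaging. For this step the study's methods cite affy, an R package, while Affymetrix Expression Console stands in the submitters' processing notes. Which chip definition file was used is not stated in either. Quantile normalization gives arrays like distributions, so a shift common to most genes would be removed in part. Pools were grouped by the submitters' labels, replicates were not pooled and 0 value columns were left unused.

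Of 32321 probe sets, 19158 had 1 gene symbol in the platform annotation, 1388 several and 11775 none, and 30 of those with 1 symbol had no match in RefSeq. The probe set with the highest mean over the 6 arrays was kept per gene, which gave 18404 genes, with no filter, because the limits of the study's own filter are not given and a filter would remove some of the 10 genes. Large minus small was fitted without covariates in limma 3.58.1 (R 4.3.3) with Benjamini-Hochberg adjustment over all 18404 genes, and called at an adjusted p under 0.05 and a log2 fold change above 1 in size. Intervals are 95% confidence intervals of the moderated test. Of the lists, those genes are named that had an unadjusted p under 0.05, or the 2 with the smallest p where none had; *TFEB*, *TFE3*, *MITF* and *TFEC* are named besides as the factors that bind the palindrome. Likeness to *LAMP2* named the 5 nearest genes. Summed levels are log2 of the sum of linear values. Tables and sequences were handled in Python 3.11.15 with pandas 2.3.3 and numpy 2.4.6. Gene positions are RefSeq spans in GRCh38.p14. The fit was tested on simulated data. The 10 genes and the lists were chosen with earlier results of these data known. Alternatives covered the variance model, array weights, scaling, filters, the probe sets tested and each pool left out in turn.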

Additional observations from a re-analysis of the deposited data

How the results depend on the processing

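Under 16 alternatives, 6 of which left out 1 pool each, 0 of the 10 genes were called, and *LAMP2*, *NPC1*, *OSTM1*, *TMEM192*, *MCOLN1* and *CLCN7* kept their sign wherever they were tested. Of 150 values for single genes 11 changed sign, all of *LAMP1*, *CD63*, *SCARB2* and *CTNS*. With array weights *LAMP1* was at 0.0251 and *CTNS* at -0.016, with each array centred on its median *LAMP1* was at 0.0423, and with the trend with signal level removed *CD63* was at -0.033 and *SCARB2* at -0.0256. With each pool left out in turn, *LAMP1* ranged from -0.19 to 0.15, *CTNS* from -0.20 to 0.29, *SCARB2* from -0.11 to 0.19 and *CD63* from -0.0006 to 0.0711. The median of the 10 genes (0.04) was 0.12 after centring, -0.0293 with the trend removed and -0.0432 (without small pool 6) to 0.0882 with pools left out. The number of the 10 higher at an unadjusted p under 0.05 (1) was 2 after centring and with the trend removed, and 0 to 1 with pools left out (0 without large pool 2 or 4). The gene was *OSTM1*, joined by *LAMP2* after centring and by *NPC1* with the trend removed, but without small pool 7 it was *LAMP2*. The number lower (1) was 0 after centring and with the trend removed, and 0 to 1 with pools left out (0 without large pool 2, large pool 4 or small pool 5). That gene was *TMEM192*, but without small pool 6 it was *MCOLN1*. All large pools were above all small pools for 1 gene as deposited, for 2 after centring and with the trend removed, and for 1 to 2 with pools left out (2 without large pool 3 or 4 or small pool 5 or 7). They were below for 3 as deposited, for 1 after quantile normalization and for 0 after centring and with the trend removed. Leaving out a pool can add genes without overlap but cannot remove any, so a rise in these counts is built in. Shares of all genes were counted as deposited only (5.48% above and 21.6% below). Changes in these counts under other settings are therefore not a result about the 10 genes. At an unadjusted p under 0.05 from limma, 797 of all 18404 genes were higher and 1934 lower as deposited. These counts were 834 and 1086 after quantile normalization, 1207 and 718 after centring, and 1130 and 462 with the trend removed. With pools left out they were 684 to 864 and 1021 to 1591. The counts of the 10 and of the 77 genes have to be read beside these. Of the 77 further genes, 6 were higher at an unadjusted p under 0.05, against 10 after centring and 3 to 7 with pools left out (3 without large pool 2). The number lower (6) was 2 after quantile normalization, 1 after centring and with the trend removed, 3 with the filter on the floor and with all probe sets tested, and 1 to 5 with pools left out (1 without large pool 3 or small pool 5 or 6, and 3 without large pool 2 or 4). With the filters on the floor and on the interquartile range, 2062 genes were left with 2 called, and only *LAMP2* and *TMEM192* of the 10; the counts then were 0 higher and 0 lower, 0 above and 1 below, and 2 higher and 0 lower for the further genes. No paired analysis was possible because the large and small pools share no replicate number. Levels near or below the floor in some or all pools (*CLCN7*, *CTNS*, *NPC1*, *TMEM192*, *MCOLN1* and, in small pool 7, *OSTM1*) limit how well a difference can be measured.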
